A study of Homo sapiens with 6 samples.

Results

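The enzymes that make serine and pass its carbon to folate were examined in AC16 cells, an established human line labelled as myocardial. The 8 listed genes were PHGDH, PSAT1, PSPH, SHMT1, SHMT2, MTHFD1, MTHFD2 and MTHFD1L, and a gene was measured through the transcript cluster that carried its symbol alone. This left 7 genes of 22465. The only cluster of MTHFD1L carried a second symbol, so that gene was not analysed here. The 6 arrays fell into 2 groups of 3 biological replicates by title. PM2.5 arrays carried RNA of AC16 cells given fine airborne particles at 50 µg/mL for 24 h, and control arrays carried RNA of AC16 cells labelled control. All samples were from this cell line, and no label names separate cultures, so the p-values measure the spread between these arrays, part of which may be technical. Values are log2 expression after RMA, which corrects the background, normalises the arrays together and combines the probes of each cluster.

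Serine is made from an intermediate of glycolysis in a short branch of the pathway. PHGDH oxidises that intermediate, PSAT1 adds an amino group taken from glutamate, and PSPH removes the phosphate to release serine. Serine hydroxymethyltransferases then move a carbon from serine to tetrahydrofolate and leave glycine, SHMT1 in the cytosol and SHMT2 in mitochondria. MTHFD2 oxidises the loaded folate in mitochondria, and MTHFD1 carries the cytosolic steps that feed purine and thymidylate synthesis. Several of these genes are known targets of ATF4, the transcription factor of the amino acid response.

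The arrays also fell into 2 sets of 3 at the widest gap in the mean signal of 8 spike-in probe sets. The high spike-in set, at 10.73 to 10.90 on the log2 scale, held control replicates 1 and 2 with PM2.5 replicate 1. The low spike-in set, at 10.17 to 10.27, held control replicate 3 with PM2.5 replicates 2 and 3. The deposited distributions differed with the sets: the interquartile range over genes was 1.18 to 1.33 on low and 1.08 to 1.12 on high spike-in arrays, and the median 4.22 to 4.24 against 4.28 to 4.31. The sets cut across the groups, and no label names them. Every exposure difference of the enzymes is therefore given first without the set, then blocked on it, and within each set. Within a set 1 array of a group stands against 2 of the other, so no error can be given. All 7 genes read above 5.66, the highest reading of any of 23 background probe sets, on all 6 arrays, as 4150 genes did on at least 3 arrays. Among cardiomyocyte markers 2 of 11 measured genes read above background, MYL2 and DES, while MYH6, MYH7, TNNI3, ACTN2, NPPA and NKX2-5 did not. Among fibroblast markers 4 of 7 did, COL1A1, COL1A2, PDGFRB and VIM. Smooth muscle markers gave 2 of 4, TAGLN and CNN1, endothelial markers 0 of 5 and leukocyte markers 1 of 5, which was CD68. In RNA from bulk cultures, fewer cells of a type and less RNA per cell cannot be told apart.

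No enzyme of the pathway changed with PM2.5 in the test, and 4 of the 7 differed more between the spike-in sets than between the groups. PSAT1, PSPH, MTHFD1 and MTHFD2 read higher on all 3 low spike-in arrays than on all 3 high spike-in arrays, by 1.12 to 2.23 on the log2 scale, as 45.3% of genes above background also did, by any size. PHGDH, SHMT1 and SHMT2 ranged over 0.40 or less over all 6 arrays. In limma, 0 of 22465 genes (0%) passed for PM2.5 at an adjusted p under 0.05, the 7 enzymes among those that did not, while 473 genes (2.11%) had an unadjusted p under 0.05. Blocking on the array set gave 0 genes (0%) again, with 1293 at an unadjusted p under 0.05.

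**Figure D1:**
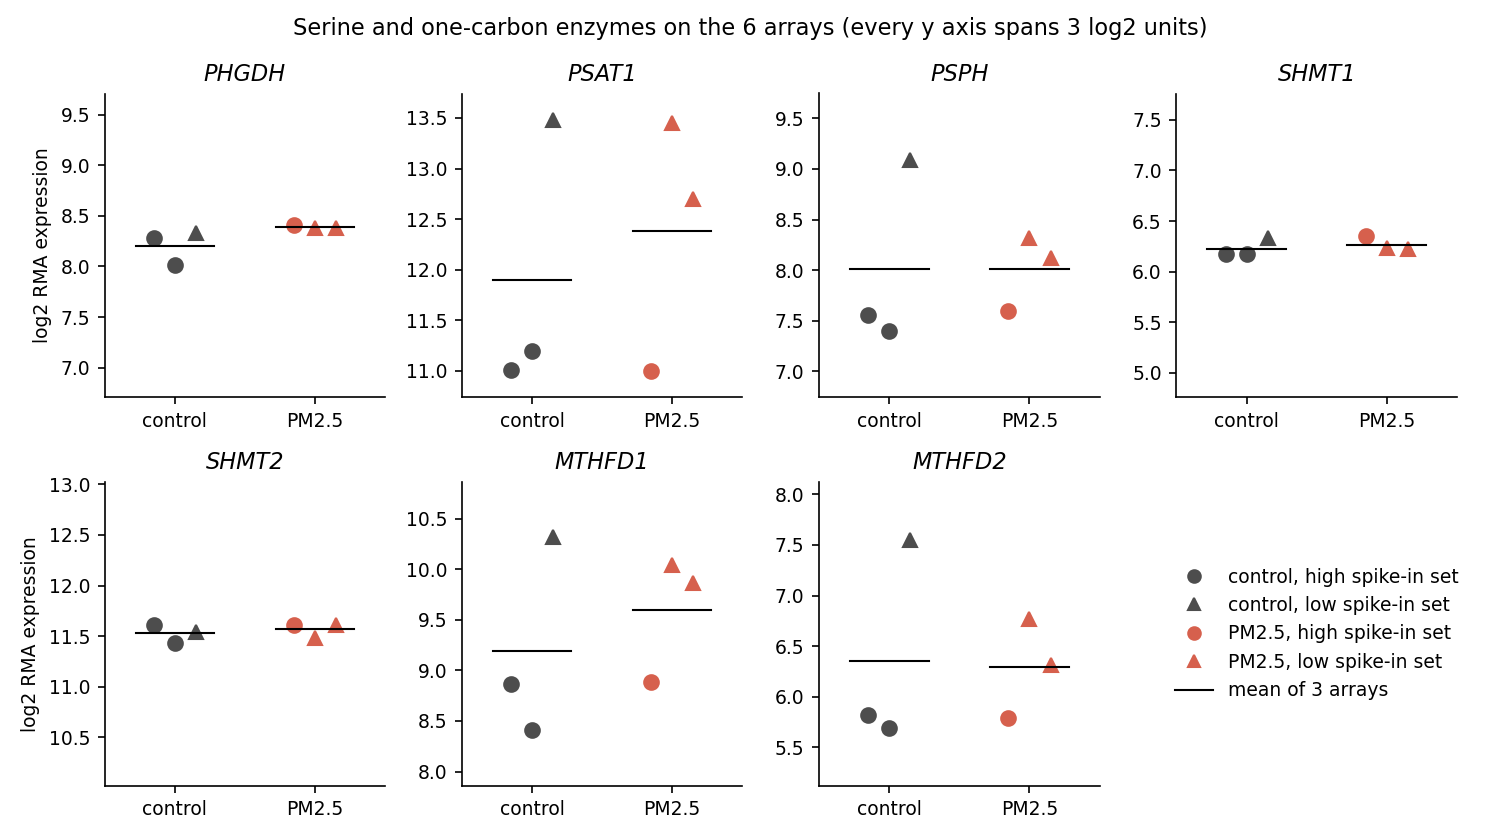
Log2 RMA expression of the 7 enzymes on each array, by group, with circles for the high and triangles for the low spike-in set and a line at the mean of 3 arrays; every y axis spans 3 log2 units. Triangles lie above circles in both groups for PSAT1, PSPH, MTHFD1 and MTHFD2, and the points of PHGDH, SHMT1 and SHMT2 lie within 0.40 of each other.

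PHGDH, the first enzyme of the branch and the one that commits carbon to serine, read 8.41, 8.38 and 8.38 on PM2.5 replicates 1, 2 and 3. On control replicates 1, 2 and 3 it read 8.28, 8.01 and 8.33. Every PM2.5 reading exceeded every control reading, by a narrow margin, and control replicate 2 was the lowest. The means were 8.39 ± 0.015 (SD, n = 3) and 8.21 ± 0.17 (SD, n = 3), a difference of 0.18 (SE 0.16, 95% interval -0.22 to 0.58) that did not pass in limma (adjusted p = 1). With the array set as a block it was 0.16 (interval -0.16 to 0.48, adjusted p = 0.924), and it was 0.26 within the high and 0.05 within the low spike-in set. It was the only one of the 7 enzymes whose groups did not overlap, and PM2.5 arrays all lay above controls for 1.95% of all genes and 1.78% of genes above background. The sign of its exposure difference held with each array left out, between 0.08 and 0.24.

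PSAT1, the aminotransferase of the second step, varied most of the 7. It read 11.00 on PM2.5 replicate 1 but 13.45 and 12.69 on PM2.5 replicates 2 and 3. Control replicates 1 and 2 read 11.01 and 11.20, and control replicate 3 read 13.48. Each group thus held both low and high readings, and the high ones were those of the low spike-in set. The exposure difference was 0.48 (SE 0.88, 95% interval -1.67 to 2.64, limma adjusted p = 1). Blocking on the array set turned the sign, to -0.26 (interval -0.84 to 0.33, adjusted p = 0.934), and within the high and low sets it was -0.11 and -0.41.

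PSPH, the phosphatase that releases serine, read 7.60, 8.32 and 8.12 on PM2.5 replicates 1, 2 and 3 and 7.55, 7.40 and 9.09 on control replicates 1, 2 and 3. Whether its probes also match RNA of the pseudogene PSPHP1 was not tested. The highest reading was a control array, and the group means were alike, at 8.01 ± 0.37 (SD, n = 3) after PM2.5 and 8.01 ± 0.93 (SD, n = 3) in controls. The interval of the difference ran from -1.20 to 1.19 on the log2 scale, so differences of up to about that size in either direction could not be told from 0 with these arrays (limma adjusted p = 1). With the array set as a block it narrowed to -0.99 to 0.24 around -0.37 (adjusted p = 0.902). Within the high set PM2.5 was higher by 0.12, and within the low set the difference was -0.87.

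The serine hydroxymethyltransferases hardly varied. SHMT1, the cytosolic enzyme, read 6.35, 6.23 and 6.22 on PM2.5 replicates 1, 2 and 3 and 6.17, 6.18 and 6.33 on control replicates 1, 2 and 3. Its groups overlapped, with a difference of 0.04 (SE 0.10, 95% interval -0.20 to 0.28, limma adjusted p = 1). SHMT2, the mitochondrial enzyme, read 11.61, 11.48 and 11.61 on the PM2.5 arrays and 11.61, 11.43 and 11.54 on the controls. The readings on PM2.5 replicates 1 and 3 and control replicate 1 were the same number in the deposited table, as happened on 3 or more arrays for 141 genes above background (3.40%), so differences in SHMT2 may be understated. Its difference was 0.04 (SE 0.15, interval -0.34 to 0.41, adjusted p = 1). With the array set as a block these were 0.03 (interval -0.19 to 0.25, adjusted p = 0.988) for SHMT1 and 0.05 (interval -0.22 to 0.31, adjusted p = 0.982) for SHMT2. Within the high and low sets they were 0.17 and -0.11 for SHMT1 and 0.09 and 0.005 for SHMT2.

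MTHFD1, the cytosolic enzyme that combines several folate activities, read 8.89, 10.04 and 9.86 on PM2.5 replicates 1, 2 and 3. On control replicates 1, 2 and 3 it read 8.86, 8.41 and 10.31. The lowest and the highest reading were both controls. The difference was 0.40 (SE 0.57, 95% interval -0.99 to 1.80, limma adjusted p = 1), and blocking on the array set turned the sign, to -0.055 (interval -0.59 to 0.48, adjusted p = 0.995). Within the high set PM2.5 was higher by 0.25, and within the low set the difference was -0.36.

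MTHFD2, the mitochondrial dehydrogenase and cyclohydrolase, read close to background on the high spike-in arrays. It read 5.79, 6.77 and 6.31 on PM2.5 replicates 1, 2 and 3 and 5.82, 5.70 and 7.55 on control replicates 1, 2 and 3, and the 3 high spike-in arrays, at 5.70 to 5.82, lay just above the background threshold of 5.66. Control replicate 3 stood above every other array. The difference was -0.06 (SE 0.54, 95% interval -1.39 to 1.26, limma adjusted p = 1), and it was -0.48 when the array set was a block (interval -1.16 to 0.19, adjusted p = 0.882). Within the high set it was 0.04 and within the low set -1.01.

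**Figure D2:**
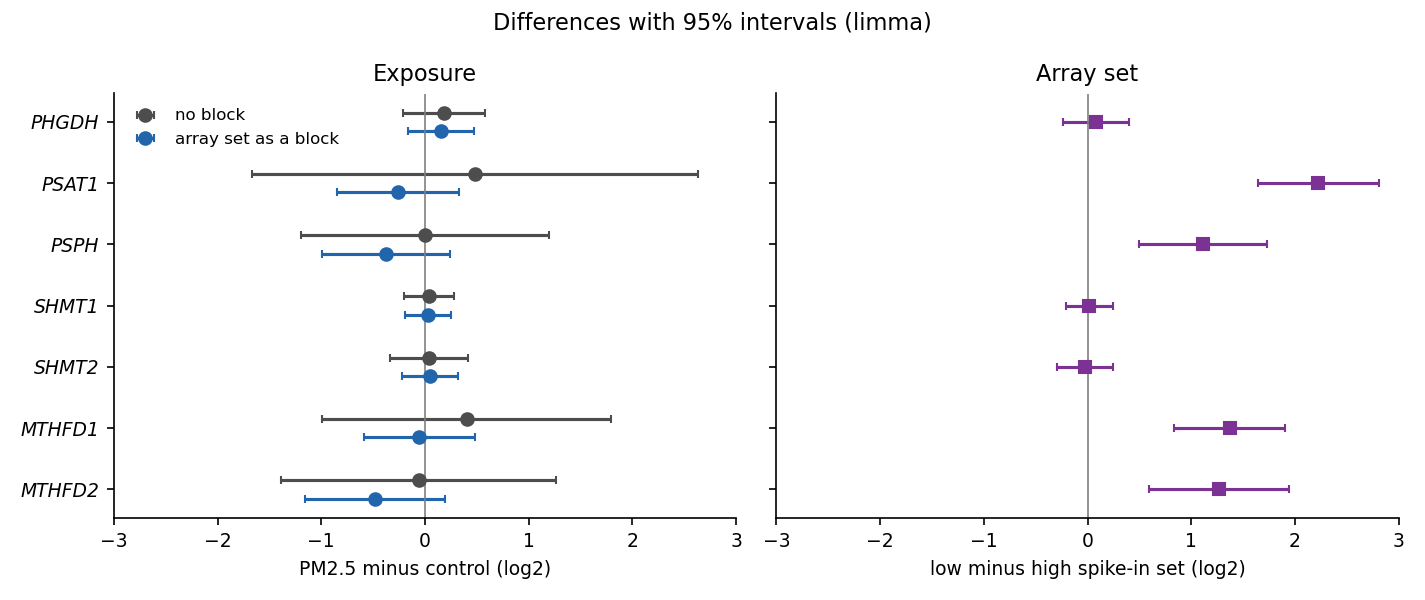
Left, PM2.5 minus control for each enzyme on the log2 scale, without a block (grey) and blocked on the array set (blue); right, low minus high spike-in set with the group as a term. Bars are limma's 95% intervals. All exposure intervals include 0, and the array set intervals of PSAT1, PSPH, MTHFD1 and MTHFD2 lie above 0.

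The array set was then tested itself, in the same limma model with the group as a term. PSAT1 was higher in the low spike-in set by 2.23 (SE 0.23, 95% interval 1.64 to 2.81, adjusted p = 0.0221), or 4.68-fold. Its means in the low and high set, not adjusted for the group, were 13.21 ± 0.45 (SD, n = 3) and 11.07 ± 0.11 (SD, n = 3). MTHFD1 was higher by 1.37 (SE 0.21, interval 0.83 to 1.91, adjusted p = 0.0323), or 2.59-fold. These 2 of 7 enzymes passed, against 5.4% of all genes and 20.4% of genes above background that passed as higher in the low set. MTHFD2, at 1.27 (interval 0.59 to 1.95, adjusted p = 0.0517), and PSPH, at 1.12 (interval 0.50 to 1.73, adjusted p = 0.0563), missed the threshold when all genes were tested and passed when only genes above background were (adjusted p = 0.0233 and 0.0247). Whether these calls survived the loss of an array depended on the array. Without PM2.5 replicate 1, PM2.5 replicate 2, control replicate 1 or control replicate 3, 0 of 7 enzymes passed in limma, and the count over all genes fell from 1810 to 4, 26, 74 and 1. Without PM2.5 replicate 3, PSAT1 alone passed (827 genes in all), and without control replicate 2 both did (496). The PSAT1 difference itself stayed between 2.07 and 2.41 over these 6 fits, and that of MTHFD1 between 1.06 and 1.68.

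PHGDH, SHMT1 and SHMT2 differed between the sets by 0.08 (95% interval -0.24 to 0.40), 0.019 (interval -0.20 to 0.24) and -0.024 (interval -0.29 to 0.24). None passed in limma (adjusted p = 0.689, 0.900 and 0.894). The first enzyme of the serine branch and both hydroxymethyltransferases thus stayed within the spread, with sets that overlapped, while the next enzymes of the branch and the MTHFD enzymes did not overlap between the sets. The low spike-in arrays all lay above the high ones for 4 of 7 enzymes, against 16.3% of all genes and 45.3% of those above background. All 4 are genes above background, so the count is near the background share. The sizes were toward the upper end of the distribution. Of 4150 genes above background, 7 had a larger positive difference than PSAT1, 134 than MTHFD1, 185 than MTHFD2 and 270 than PSPH. The median difference was 1.12 over the 7 enzymes, 0.17 over genes above background and -0.04 over all genes. Some genes of the cell type marker lists also differed between the sets. Of the 7 fibroblast markers, COL1A1, COL1A2 and PDGFRB read higher on all low spike-in arrays, by 1.20 (limma adjusted p = 0.0488), 1.20 (adjusted p = 0.0727) and 0.67 (adjusted p = 0.109). VIM was at 0.015. It read the same number, 11.45, on PM2.5 replicates 1 and 2 and control replicates 1 and 3, so its difference may be understated. THY1, LUM and DCN, which lay within background, were at -0.15, -0.11 and -0.20. The median was 0.015 over the 7 markers and 0.94 over the 4 above background. The mean of these 7 markers ran from 6.50 to 6.61 on low and from 6.01 to 6.28 on high spike-in arrays, and from 6.24 to 6.54 on PM2.5 and from 6.01 to 6.61 on control arrays. Of the 5 leukocyte markers CD68 alone was higher on the low spike-in arrays, by 1.16 (adjusted p = 0.108). CD3E, CD14, PTPRC and LYZ, which lay within background, differed by -0.18, -0.12, -0.11 and -0.02, and the median of the list was -0.11. The mean of these 5 ran from 5.12 to 5.21 on low and from 4.94 to 5.07 on high spike-in arrays, and from 5.07 to 5.21 on PM2.5 and from 4.94 to 5.16 on control arrays. PTPRC, the pan-leukocyte marker, read 4.12 or lower on every array. The other marker lists also held genes whose sets did not overlap, none of which passed. Of 11 cardiomyocyte markers 2 read higher on all low spike-in arrays, MYL2 by 0.48 and NPPB by 0.14, and 1 read lower. Of 4 smooth muscle markers 0 read higher and 2 lower, and of 5 endothelial markers 0 and 3. Over all genes 16.3% read higher in this way, and 5405 of 22465 lower. The part of these markers in the differences of the enzymes was not tested.

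**Figure D3:**
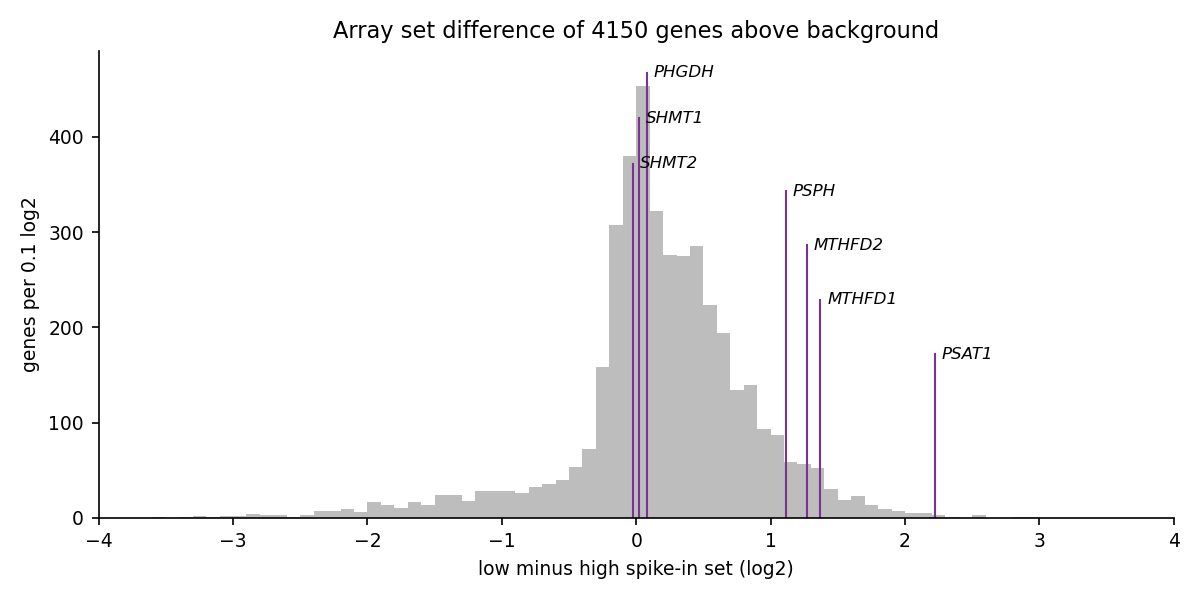
Number of genes above background (4150 in all, y axis, per 0.1 on the log2 scale) by their difference between the low and the high spike-in set (x axis, log2). Lines mark the 7 enzymes: SHMT2, SHMT1 and PHGDH stand at the peak near 0, PSPH, MTHFD2 and MTHFD1 in the upper tail and PSAT1 near its end, at 2.23.

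Promoters were read for the enzymes that moved together and for PHGDH, which did not, to show what their sequences share. RefSeq's GRCh38.p14 promoter table, with 250 bases before and 50 after each annotated start, held 5 of the 7 enzymes. The regions printed are chr9:78296875-78297174 for PSAT1, chr2:74198365-74198664 for MTHFD2, chr14:64388103-64388402 for MTHFD1 and chr1:119711684-119711983 for PHGDH, all on the plus strand and 5′ to 3′. Capitals mark matches, on either strand, to the CCAAT box, the E-box CACGTG, the antioxidant response element core TGACNNNGC and the C/EBP-ATF composite element TGATGNAA, which ATF4 is known to bind. No matches overlapped each other.
PSAT1: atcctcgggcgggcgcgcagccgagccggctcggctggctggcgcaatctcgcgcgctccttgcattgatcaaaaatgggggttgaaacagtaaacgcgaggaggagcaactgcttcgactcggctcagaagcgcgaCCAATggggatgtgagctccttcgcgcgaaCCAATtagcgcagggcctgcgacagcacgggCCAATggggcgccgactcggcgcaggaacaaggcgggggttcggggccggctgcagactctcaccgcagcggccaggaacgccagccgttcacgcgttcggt
MTHFD2: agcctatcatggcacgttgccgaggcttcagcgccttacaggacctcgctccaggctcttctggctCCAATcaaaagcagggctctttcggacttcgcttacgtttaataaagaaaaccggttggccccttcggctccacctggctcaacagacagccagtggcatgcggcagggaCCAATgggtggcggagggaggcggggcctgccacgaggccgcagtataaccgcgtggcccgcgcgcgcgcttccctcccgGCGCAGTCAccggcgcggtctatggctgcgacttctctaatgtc
MTHFD1: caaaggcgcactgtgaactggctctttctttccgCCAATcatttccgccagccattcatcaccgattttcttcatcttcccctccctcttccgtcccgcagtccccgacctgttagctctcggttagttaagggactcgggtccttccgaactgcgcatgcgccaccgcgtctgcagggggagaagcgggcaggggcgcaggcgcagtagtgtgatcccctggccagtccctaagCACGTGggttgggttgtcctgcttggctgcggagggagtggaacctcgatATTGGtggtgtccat
PHGDH: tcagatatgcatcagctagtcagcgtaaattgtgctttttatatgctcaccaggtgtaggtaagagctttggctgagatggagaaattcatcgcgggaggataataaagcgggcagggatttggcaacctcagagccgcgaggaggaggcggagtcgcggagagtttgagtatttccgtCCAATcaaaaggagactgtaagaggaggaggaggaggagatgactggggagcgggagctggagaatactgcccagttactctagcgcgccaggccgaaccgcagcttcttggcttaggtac

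All 5 promoters held a CCAAT box, as did 34.6% of the 35116 promoters of the table. PSAT1 held 3 copies, 113, 83 and 52 bases before the start, and 3.26% of promoters held 3 or more. MTHFD2, MTHFD1 and SHMT1 held 2 each, as did at least that many in 10.8% of promoters, and PHGDH held 1. MTHFD1 also held the E-box (7.26% of promoters) and MTHFD2 the antioxidant response element core (13.3%). The composite element TGATGNAA had no match in these windows and occurred in 3.62% of promoters. The CCAAT box was thus shared by enzymes that moved with the array set and by PHGDH and SHMT1, which did not. A match is a description of the letters and was not tested as a binding site.

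No gene of the pathway lists passed for PM2.5 in limma, whether or not the array set was a block, and the medians of the 6 other pathway lists lay between -0.04 and 0.04, against 0.04 over the 7 enzymes and -0.0099 over all genes. Many of these genes lay within background. Over list genes above background, the medians ran from -0.14 for the glycine cleavage system to 0.13 for folate interconversion and use, against 0.01 over all genes above background. Among folate interconverting and folate using enzymes 8 of 10 listed genes were measured, 4 of them above background. These 4 read higher on all low than on all high spike-in arrays, as 45.3% of genes above background did. Of the 4, 2 passed the array set test as higher, where 5.4% of all genes and 20.4% of genes above background did. TYMS, which makes thymidylate with folate's carbon, read 11.30, 12.42 and 12.46 on PM2.5 replicates 1, 2 and 3 and 11.33, 11.21 and 12.84 on control replicates 1, 2 and 3. It was higher in the low set by 1.36 (limma adjusted p = 0.0209). GART, a purine synthesis enzyme that uses formyl folate, was higher by 0.62 (adjusted p = 0.0218). ATIC, of the same pathway, and MTFMT, which formylates the mitochondrial initiator tRNA, differed by 0.45 and 0.47 and did not pass (adjusted p = 0.0639 and 0.0538). ALDH1L2, a mitochondrial formyl folate dehydrogenase, lay within background at 4.39 to 4.55, with an exposure difference of 0.06. It was the only measured gene of this list whose groups did not overlap. PM2.5 arrays all lay above controls for 1.95% of all genes. MTHFD2L and ALDH1L1 lay within background on all arrays. Both read lower on all low than on all high spike-in arrays, as 5405 of 22465 genes did. Of 7 folate uptake and retention genes only FPGS, which adds glutamates to folate, read above background, at 5.75 to 5.97, with a set difference of -0.09.

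In the methionine cycle and transsulfuration list, 9 genes were measured and 4 were above background. The low spike-in arrays all lay above the high ones for 6 of the 9 (16.3% of all genes), and 2 passed as higher (5.4% of all genes). Of the 4 above background, 3 lay all above (45.3% of genes above background) and 2 passed as higher (20.4%). CTH, which makes cysteine from cystathionine and so draws on serine, read 7.37, 9.07 and 8.75 on PM2.5 replicates 1, 2 and 3 and 7.53, 7.36 and 9.33 on control replicates 1, 2 and 3. It was higher in the low set by 1.72 (limma adjusted p = 0.0206), and its exposure difference was 0.32, which blocking on the array set turned to -0.25. MAT2A, which makes S-adenosylmethionine, was higher in the low set by 0.49 (adjusted p = 0.0451). CBS, which joins serine to homocysteine, differed by 0.18 and AHCY by -0.05, and neither passed (adjusted p = 0.342 and 0.898). Of the 4 genes of the glycine cleavage system, GCSH and DLD read above background and GLDC and AMT did not. DLD, the dihydrolipoamide dehydrogenase that also serves pyruvate dehydrogenase, had an exposure difference of -0.33. With the array set as a block it was -0.45 (limma adjusted p = 0.862).

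Of 6 measured genes that take up or use serine, 4 read higher on all low spike-in arrays (16.3% of all genes). Only 1 passed as higher (5.4% of all genes). Of the 4 above background, 3 read higher on all low spike-in arrays (45.3% of genes above background) and 1 passed as higher (20.4%). SPTLC1, a subunit of the transferase that starts sphingolipid synthesis from serine, was higher by 0.66 (limma adjusted p = 0.0428). The amino acid carriers SLC1A4 and SLC1A5 differed by 0.48 and -0.19 (adjusted p = 0.105 and 0.575), and the serine racemase SRR by 0.36 (adjusted p = 0.0548). In the list of the ATF4 axis, 13 of 14 genes were measured and 10 were above background. The low spike-in arrays all lay above the high ones for 6 of the 13 (16.3% of all genes) and all below for 3. As higher, 3 passed (5.4% of all genes). Of the 10 above background, 4 lay all above (45.3% of genes above background) and 2 passed as higher (20.4%), so these counts are near the background shares. ATF4 itself read 10.40, 10.39 and 10.38 on PM2.5 replicates 1, 2 and 3 and 10.35, 10.07 and 10.58 on control replicates 1, 2 and 3, with a set difference of 0.18 (adjusted p = 0.454). ASNS, the asparagine synthetase, was higher in the low set by 0.78 (adjusted p = 0.0298) and SLC7A11, the cystine carrier, by 0.59 (adjusted p = 0.0234). EIF2AK4, the kinase GCN2 that senses uncharged tRNA, was the other one, higher by 0.79 (adjusted p = 0.0437), and it read above background on too few arrays to be called so. Other ATF4 targets read lower on all 3 low spike-in arrays than on all 3 high ones, as 18.7% of genes above background did, without passing. These were CHAC1, a glutathione-degrading enzyme (-0.52, adjusted p = 0.0647), TRIB3 (-0.17, adjusted p = 0.222) and SESN2 (-0.18, adjusted p = 0.222). ALDH18A1, MYC and DDIT3, the last within background, read higher on all low spike-in arrays, also without passing. They differed by 0.49, 0.28 and 0.24 (limma adjusted p = 0.151, 0.222 and 0.172). PYCR1 differed by -0.25 (adjusted p = 0.256), with sets that overlapped. Whether ATF4 had a part in the array set differences was not tested.

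**Figure D4:**
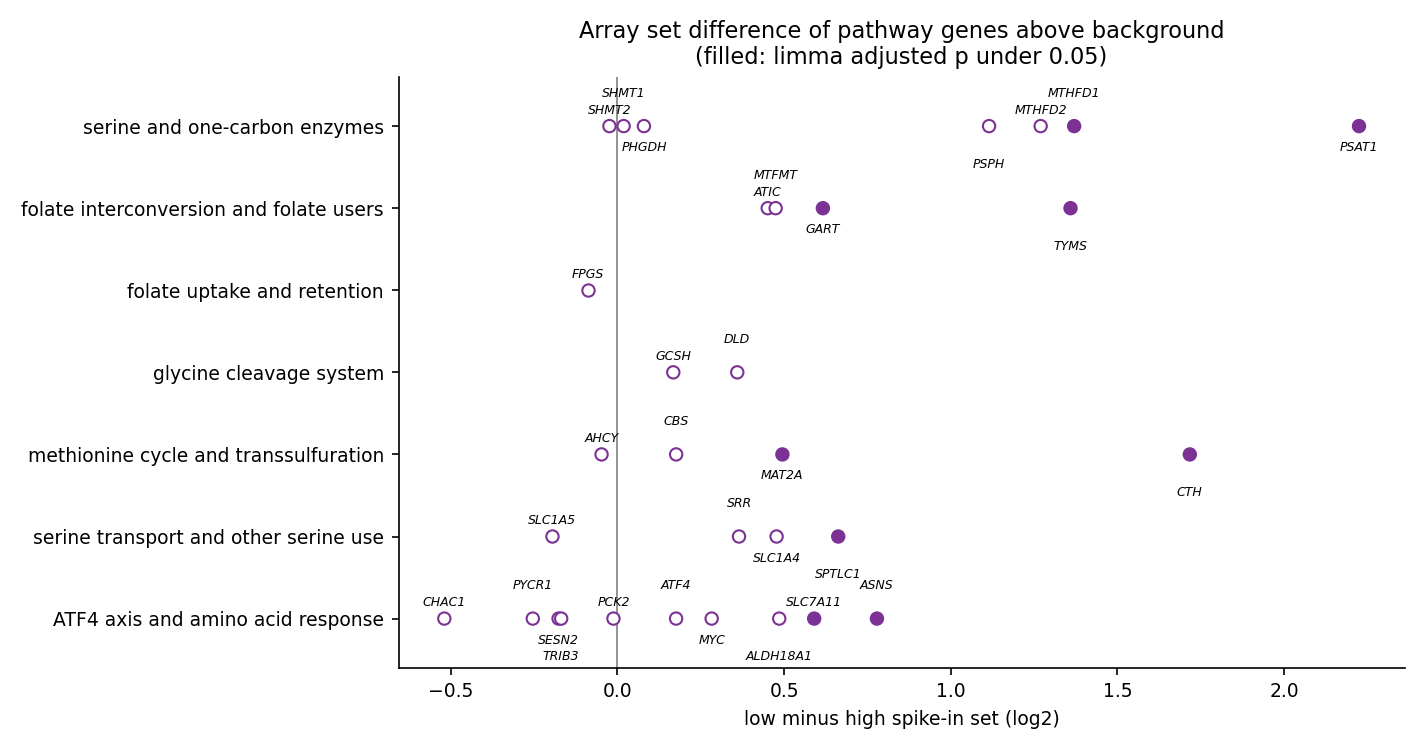
Difference between the low and the high spike-in set (x axis, log2) for the genes above background of each pathway list (y axis); filled points passed limma's test at an adjusted p under 0.05. PSAT1 at 2.23, CTH at 1.72, MTHFD1 at 1.37 and TYMS at 1.36 lie farthest right, and CHAC1 at -0.52 farthest left.

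For each enzyme the gene above background with the most similar profile was found, as the smallest root mean square difference over the 6 arrays after each profile was centred on its mean. The copper carrier gene SLC31A1 was nearest to PSAT1, at 0.19 on the log2 scale against a root mean square of 1.10 for the PSAT1 profile itself. RPN2, a subunit of the oligosaccharyltransferase, was nearest to MTHFD1 (0.05 against 0.71), YIPF5 to MTHFD2 (0.07 against 0.66) and SZRD1 to PSPH (0.08 against 0.58). For the flat profiles these were TTYH3 for PHGDH (0.03 against 0.13), UBE2L6 for SHMT1 (0.02 against 0.07) and CLN3 for SHMT2 (0.01 against 0.07). Among the enzymes themselves, PSPH and MTHFD2 were the closest of the pairs that moved with the array set, at 0.11, and both had their highest reading on control replicate 3. MTHFD1 lay 0.27 from PSPH and 0.29 from MTHFD2. PSAT1 lay 0.48 from MTHFD1 and 0.63 from PSPH. The arrays of a set share their spike-in level, so this likeness describes the sets as much as the genes.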

How the data were processed

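The deposited table held log2 expression values of 70523 rows on 6 arrays, and the submitters' processing notes name RMA as the method. The software version and the genome build are not given in the sources used here. Probe symbols came from the platform annotation. Of 67528 transcript clusters, 23781 had 1 symbol, 1543 several and 42204 none here. For 479 genes with several clusters the one with the highest mean stood for the gene, which gave 22465 genes. Arrays give no count depth, and their number limits the precision.

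The test was limma 3.58.1, run in R 4.3.3 with an intensity trend in eBayes. It was two-sided, with Benjamini-Hochberg adjustment over all genes and a threshold of 0.05. The exposure test was checked on simulated data with independent noise and no array sets, and the array set test was not. Alternatives were the replicate number or the array set as a block, other scalings, no trend, a filter on dim genes, averaging a gene's clusters, weighting the arrays, and omitting each array in turn. Named besides the enzymes were list genes above background with the lowest p or with groups that did not overlap, and the nearest profiles. Further list genes (MTFMT, AHCY, SRR, ATF4, CHAC1, TRIB3, SESN2, ALDH18A1, MYC, EIF2AK4, ALDH1L2 and those within background) were chosen after their values were seen. The enzymes and lists were chosen with earlier results of these data known. No 2 arrays shared over 3.18% of values among genes above background, so none duplicated another. The labels name no pairs, so the main test did not treat same-numbered arrays as pairs.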

Additional observations from a re-analysis of the deposited data

How the results depend on the processing

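The exposure result held under all 14 alternatives tried: 0 genes and 0 of the 7 enzymes passed in limma (lowest adjusted p of an enzyme 0.120). Of 98 exposure differences of single enzymes 13 changed sign, and none was called. With the array set as a block PSAT1 was -0.26 and MTHFD1 -0.055. Array weights gave PSAT1 1.58 (adjusted p = 0.12), MTHFD1 0.91 (adjusted p = 0.122), PSPH 0.52, MTHFD2 0.51 and SHMT2 -0.023, and centring gave PSPH 0.019. Genes with an unadjusted p under 0.05 numbered 473 at first, 6517 with array weights and 2045 without control replicate 3. Leaving out each array gave -0.051 to 1.28 for PSAT1, -0.31 to 0.54 for PSPH, -0.0026 to 0.091 for SHMT1, -0.0085 to 0.083 for SHMT2, 0.0085 to 0.96 for MTHFD1 and -0.39 to 0.54 for MTHFD2, the highest for PSAT1, PSPH, MTHFD1 and MTHFD2 without control replicate 3. The replicate block gave 0 genes. The deviations of same-numbered arrays correlated at 0.78, -0.65 and 0.77 for replicates 1, 2 and 3. Replicates 1 and 3 each lay within 1 array set and replicate 2 was split between the sets. These values therefore cannot tell pairing by number from the array set.

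The array set result depended more on the settings. Over 12 alternatives, 61 of 84 differences of single enzymes kept sign and call, 9 lost a call, 4 gained one and 10 changed sign without a call. Centring and genes above background gave 4 enzymes past the test instead of 2. Leaving out each array gave 0 to 2 enzymes and 1 to 827 genes instead of 1810. A further quantile normalization turned PHGDH to -0.22 and SHMT1 to -0.17, and centring turned SHMT2 to 0.035. Leaving out each array gave -0.026 to 0.18 for PHGDH, -0.12 to 0.16 for SHMT1 and -0.068 to 0.018 for SHMT2. PSAT1, PSPH, MTHFD1 and MTHFD2 stayed higher in the low set under all 12. The cause of these changes was not tested.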
